A study of Mus musculus with 8 samples.

Results

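Bmi1, Hopx, Mex3a, Tert, Msi1 and Lrig1 are 6 genes that have been used to mark reserve stem cells, often placed at position +4 above the base of the intestinal crypt. They were taken as every probe set of the deposited expression table annotated to exactly one of these genes, which gave 14 of 45037 probe sets and 6 of 18193 annotated genes. Bmi1, Hopx, Mex3a and Tert had 2 probe sets each, and Msi1 and Lrig1 had 3 each. The study sorted single cells of mouse intestinal crypts (strain C57BL/6) by flow cytometry and profiled them on Affymetrix arrays, 8 in all. Cells bearing high, medium or low surface EphB2, a receptor tyrosine kinase detected with an antibody, were hybridized as EphB2 High, EphB2 Medium and EphB2 Low, with 2 arrays each. Cells of mice in which green fluorescent protein had been knocked into the Lgr5 gene were hybridized as Lgr5 High and Lgr5 Low, sorted on that fluorescence, with 1 array each. All groups had been dissociated with EDTA, Dispase and DNase, and their RNA was amplified before hybridization. Each EphB2 replicate number stands for a hybridization shared by the 3 EphB2 groups, and the Lgr5 arrays came from another one of their own, so that a difference between the Lgr5 and EphB2 arrays cannot be told apart from a difference between hybridizations. Neither the age of the animals nor whether replicates came from separate animals is given in the sources used here. The p-values therefore reflect how far these samples differ among themselves, and that spread may be technical.

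The crypt base holds cycling stem cells that express Lgr5, a receptor for the Wnt-enhancing R-spondins, intermingled with Paneth cells. A second population, slower to divide and located mostly just above the Paneth cells, has been described as a reserve that can restore the Lgr5 cells after injury. The genes proposed to mark it act in unlike ways. Mex3a and Msi1 are RNA-binding proteins. Lrig1 is a membrane protein that restrains signalling by the epidermal growth factor receptor and its relatives. Hopx is an atypical homeodomain protein that does not bind DNA, Bmi1 is a subunit of Polycomb repressive complex 1, and Tert is the catalytic subunit of telomerase.

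Promoter windows of 5 of the genes (Bmi1, Hopx, Mex3a, Tert and Lrig1; 6 windows, Hopx having 2) were read from RefSeq on build GRCm38.p6, from 250 bases before to 50 after each start site. TCAAAG, the core bound by TCF and LEF factors of the Wnt pathway (searched on both strands, CTTTGA on the other), was in 0 of the 6 windows and in 16.0% of all 32851 windows of this length. CAGCTG, an E-box core that reads the same on both strands and does not overlap the first motif, was in 1 of 6 windows and in 16.3% of all. That window belongs to Hopx (chr5:77115074-77115373, minus strand), and it is shown because it alone held that motif. The Mex3a window (chr3:88531696-88531995, plus strand) is shown beside it because Mex3a had the largest response to the EphB2 sort by brightest probe set. Capitals mark CAGCTG, and the other letters are lower case.
Hopx: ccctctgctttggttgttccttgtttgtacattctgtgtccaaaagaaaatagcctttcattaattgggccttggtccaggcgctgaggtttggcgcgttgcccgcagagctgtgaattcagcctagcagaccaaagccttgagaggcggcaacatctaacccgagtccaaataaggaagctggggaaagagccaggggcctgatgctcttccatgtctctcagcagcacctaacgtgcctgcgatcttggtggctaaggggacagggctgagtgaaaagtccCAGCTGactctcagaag
Mex3a: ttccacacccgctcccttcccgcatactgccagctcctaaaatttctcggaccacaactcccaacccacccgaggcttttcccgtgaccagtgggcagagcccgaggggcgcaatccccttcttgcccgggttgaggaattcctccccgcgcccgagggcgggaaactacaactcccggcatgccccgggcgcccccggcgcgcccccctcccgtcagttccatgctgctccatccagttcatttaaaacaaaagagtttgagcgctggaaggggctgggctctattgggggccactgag
A match is a description of these letters only.

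Levels are RMA values as deposited, on the log2 scale, where 1 unit is a doubling of signal. Array medians lay between 6.12 and 6.20. Sorted cells were first compared with the markers of other cell types. With 1 probe set per gene, 19.6% of all genes rose and 13.2% fell in EphB2 High relative to EphB2 Low cells. In the Lgr5 sort, 44.2% of all genes were higher in Lgr5 High than in Lgr5 Low cells. Enterocyte markers such as Apoa4, Treh and Mep1b fell in EphB2 High relative to EphB2 Low cells (11 of 11 measured, median -3.17), while Paneth cell markers rose (7 of 8, median 1.41), as did tuft cell markers (6 of 9, median 1.82). The log2 of the summed Paneth marker signal was 15.70 and 15.86 in EphB2 High, 15.29 and 15.64 in EphB2 Medium, 14.88 and 14.96 in EphB2 Low, 15.81 in Lgr5 High and 16.31 in Lgr5 Low. For tuft markers the corresponding sums were 11.53 and 10.96 in EphB2 High, 10.06 and 9.04 in EphB2 Medium, 9.40 and 8.80 in EphB2 Low, 10.03 in Lgr5 High and 11.15 in Lgr5 Low. Paneth and tuft signal therefore moved with the EphB2 sort in the direction of most of the 6 genes, and against the Lgr5 sort. In the Lgr5 sort, 0 of 13 enteroendocrine (median difference -2.52), 0 of 8 goblet (-1.72) and 0 of 11 enterocyte markers (-2.56) were higher in Lgr5 High than in Lgr5 Low cells. In the EphB2 sort 6 of 13 enteroendocrine markers fell and 1 rose, and 3 of 8 goblet markers fell and 2 rose. The log2 of the summed enteroendocrine signal was 12.51 in Lgr5 High and 15.17 in Lgr5 Low, and that of goblet markers 15.34 in Lgr5 High and 16.51 in Lgr5 Low. The part of these cell types in the results below was not tested. Of 13 stromal, muscle and endothelial markers, 0 changed by limma between EphB2 High and EphB2 Low, or 2 with the hybridization as a block. Per array, 10 to 12 were at or below the 95th percentile of genes of other tissues defined below. Vim was not, and read 7.59 in Lgr5 High and 11.05 in Lgr5 Low. In the Lgr5 sort 1 of the 13 was higher in Lgr5 High, and the log2 of their summed signal was 8.70 in Lgr5 High and 11.23 in Lgr5 Low. Of 10 lymphocyte and 8 myeloid markers, 3 each were higher in Lgr5 High (medians -0.14 and -0.04). The part of these cells was not tested either. In sorted populations of this kind, fewer cells of a type and less RNA per cell cannot be told apart.

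Across the EphB2 sort, 9 of the 14 probe sets were higher in EphB2 High than in EphB2 Low cells, 0 were lower and 5 did not pass the test (limma, 2-sided, Benjamini-Hochberg adjusted p below 0.05 over all 45037 probe sets). Of all probe sets, 27.4% passed, 15.4% upward and 11.9% downward. The median difference was 1.51 over the 14 and -0.01 over all. Both EphB2 High arrays lay above both EphB2 Low arrays in 11 of 14 probe sets, against 32.2% of all. With 1 array left out at a time, 7 of the 9 calls passed every time, and the other 2 are named below. By the brightest probe set of each gene, Mex3a, Msi1, Lrig1, Hopx and Bmi1 rose and Tert did not, that is 5 of 6 genes, where 19.6% of all genes rose and 13.2% fell. On these probe sets the size of the response differed widely, at 14.0-fold for Mex3a, 6.99-fold for Msi1, 3.17-fold for Lrig1, 2.55-fold for Hopx and 1.89-fold for Bmi1. This order depends on the probe set. The other Mex3a probe set gave 4.05-fold and the other Hopx one 3.61-fold, while the third of Msi1 gave 0.952-fold and the third of Lrig1 1.17-fold.

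**Figure D1:**
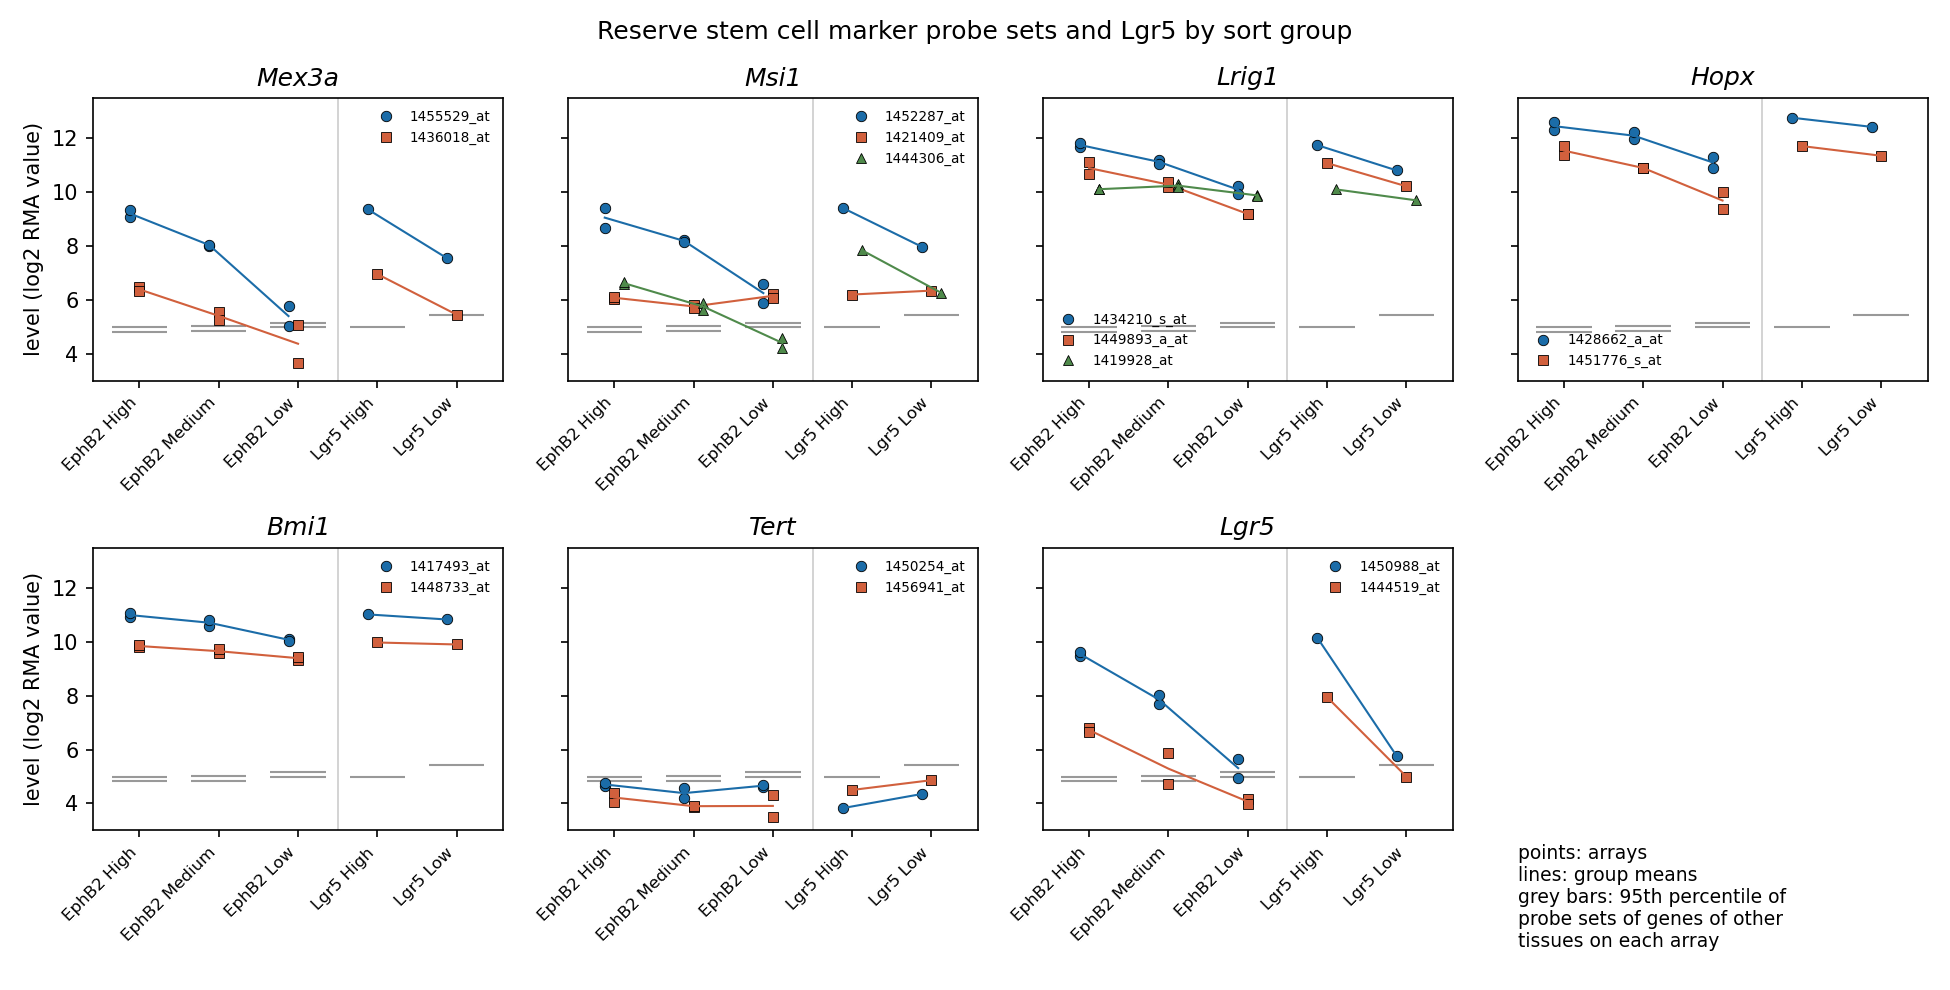
Deposited log2 levels of the 6 genes and of Lgr5 on each of the 8 arrays, with a point per array. The groups are ordered EphB2 High, Medium and Low, then Lgr5 High and Low. Mex3a and Lgr5 both fall along the EphB2 groups. Between Lgr5 High and Lgr5 Low, the brightest probe set of Mex3a differs by 1.82 and that of Lgr5 by 4.39. Tert stays below 5 on every array.

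Mex3a, an RNA-binding protein with KH domains, had the largest response of the 6 by brightest probe set. Its level there was 9.06 and 9.35 in EphB2 High, 8.02 and 8.05 in EphB2 Medium, and 5.77 and 5.03 in EphB2 Low cells. No array of one group overlapped those of another, and the Low cells stood furthest away. EphB2 High exceeded EphB2 Low by 3.81 ± 0.26 (limma SE, 2 arrays per group here and below; adjusted p = 0.00082). Within the first hybridization the difference was 3.29, and within the second it was 4.33. The dimmer Mex3a probe set, designed from the same transcript record, read 6.46 and 6.31 in EphB2 High, 5.55 and 5.26 in EphB2 Medium, and 5.07 and 3.67 in EphB2 Low cells. Its Low arrays lay far apart, and the difference of 2.02 ± 0.44 (adjusted p = 0.0202) no longer passed when one or the other of the EphB2 High arrays was left out (adjusted p up to 0.0907). It was 1.32 without one EphB2 Low array and 2.72 without the other.

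Msi1, the mouse homologue of the fly translational regulator Musashi, read 8.68 and 9.43 in EphB2 High, 8.24 and 8.14 in EphB2 Medium, and 6.61 and 5.89 in EphB2 Low cells on its brightest probe set. Both High arrays were above both Medium arrays, and these above both Low arrays. EphB2 High exceeded EphB2 Low by 2.80 ± 0.33 (limma adjusted p = 0.00309), with 2.07 in the first hybridization and 3.54 in the second. A second probe set gave 6.59 and 6.65 in EphB2 High, 5.89 and 5.61 in EphB2 Medium, and 4.21 and 4.58 in EphB2 Low cells, a rise of 2.22 ± 0.18 (adjusted p = 0.0013). The third disagreed with both. It read 6.03 and 6.12 in EphB2 High, 5.81 and 5.70 in EphB2 Medium, and 6.23 and 6.06 in EphB2 Low cells, so that the High and Low arrays overlapped. Its difference was -0.07 ± 0.14, with a 95% interval from -0.40 to 0.26 (adjusted p = 0.763).

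Lrig1 read 11.67 and 11.84 in EphB2 High, 11.20 and 11.06 in EphB2 Medium, and 10.24 and 9.95 in EphB2 Low cells on its brightest probe set. The 3 groups were again separate, in the order of their EphB2 content. EphB2 High exceeded EphB2 Low by 1.66 ± 0.16 (limma adjusted p = 0.00201), with 1.43 and 1.90 in the 2 hybridizations. A second probe set rose by nearly the same amount, 1.70 ± 0.19 (adjusted p = 0.00271). The third read 10.12 and 10.10 in EphB2 High, 10.31 and 10.18 in EphB2 Medium, and 9.91 and 9.85 in EphB2 Low cells. There the Medium arrays were the highest, and the difference between EphB2 High and EphB2 Low was 0.23 ± 0.13, with a 95% interval from -0.08 to 0.54 (adjusted p = 0.251).

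Hopx read 12.30 and 12.61 in EphB2 High, 11.97 and 12.23 in EphB2 Medium, and 11.31 and 10.89 in EphB2 Low cells on its brightest probe set. The means of EphB2 High and EphB2 Medium differed by 0.35, and those of EphB2 Medium and EphB2 Low by 0.998. The difference of these steps did not pass (-0.65 ± 0.36, limma adjusted p = 0.642). The difference between High and Low was 1.35 ± 0.21 (limma adjusted p = 0.00661), with 0.98 in the first hybridization and 1.72 in the second. The other Hopx probe set, which like the brightest of Lrig1 carries the suffix for probes shared by several transcripts, read 11.38 and 11.70 in EphB2 High, 10.90 and 10.90 in EphB2 Medium, and 10.0003 and 9.38 in EphB2 Low cells. Its rise was 1.85 ± 0.24 (adjusted p = 0.00388). Both probe sets of this gene thus had the same direction, and their EphB2 groups did not overlap.

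Bmi1 had the smallest rise that passed the test. Its brightest probe set read 10.92 and 11.07 in EphB2 High, 10.61 and 10.82 in EphB2 Medium, and 10.11 and 10.04 in EphB2 Low cells. The High arrays exceeded the Low arrays by 0.92 ± 0.14 (limma adjusted p = 0.00683), with 0.81 and 1.03 in the 2 hybridizations. This call was lost without the second EphB2 High array (adjusted p = 0.0518). The other probe set, from the same transcript record, read 9.80 and 9.89 in EphB2 High, 9.58 and 9.73 in EphB2 Medium, and 9.34 and 9.45 in EphB2 Low cells. Its groups were also separate in the order of EphB2, but the difference of 0.45 ± 0.13 missed the threshold (adjusted p = 0.0553, or 0.0365 with the hybridization as a block). A filter on dim probe sets and a trended prior also made it pass, at adjusted p = 0.0226 and 0.0437.

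Tert was the exception. One probe set read 4.66 and 4.75 in EphB2 High, 4.21 and 4.55 in EphB2 Medium, and 4.63 and 4.69 in EphB2 Low cells, and the other read 4.03 and 4.40 in EphB2 High, 3.87 and 3.92 in EphB2 Medium, and 3.50 and 4.31 in EphB2 Low cells. High and Low arrays overlapped on both. The differences between EphB2 High and EphB2 Low were 0.04 ± 0.16 (95% interval from -0.35 to 0.44, limma adjusted p = 0.881) and 0.31 ± 0.29 (95% interval from -0.39 to 1.01, adjusted p = 0.496). RMA values carry no detection call, so the levels were set beside 124 probe sets of 110 genes of other tissues (olfactory, vomeronasal and trace amine receptors and keratin-associated proteins). The 95th percentile of these lay between 4.82 and 5.43 on the 8 arrays. Each Tert probe set exceeded it on 0 of 8 arrays, so a change in Tert was not detectable at this signal. Mex3a's dimmer probe set and the second one of Msi1 exceeded it on 6 of 8 arrays each, with both EphB2 Low arrays below it.

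**Figure D2:**
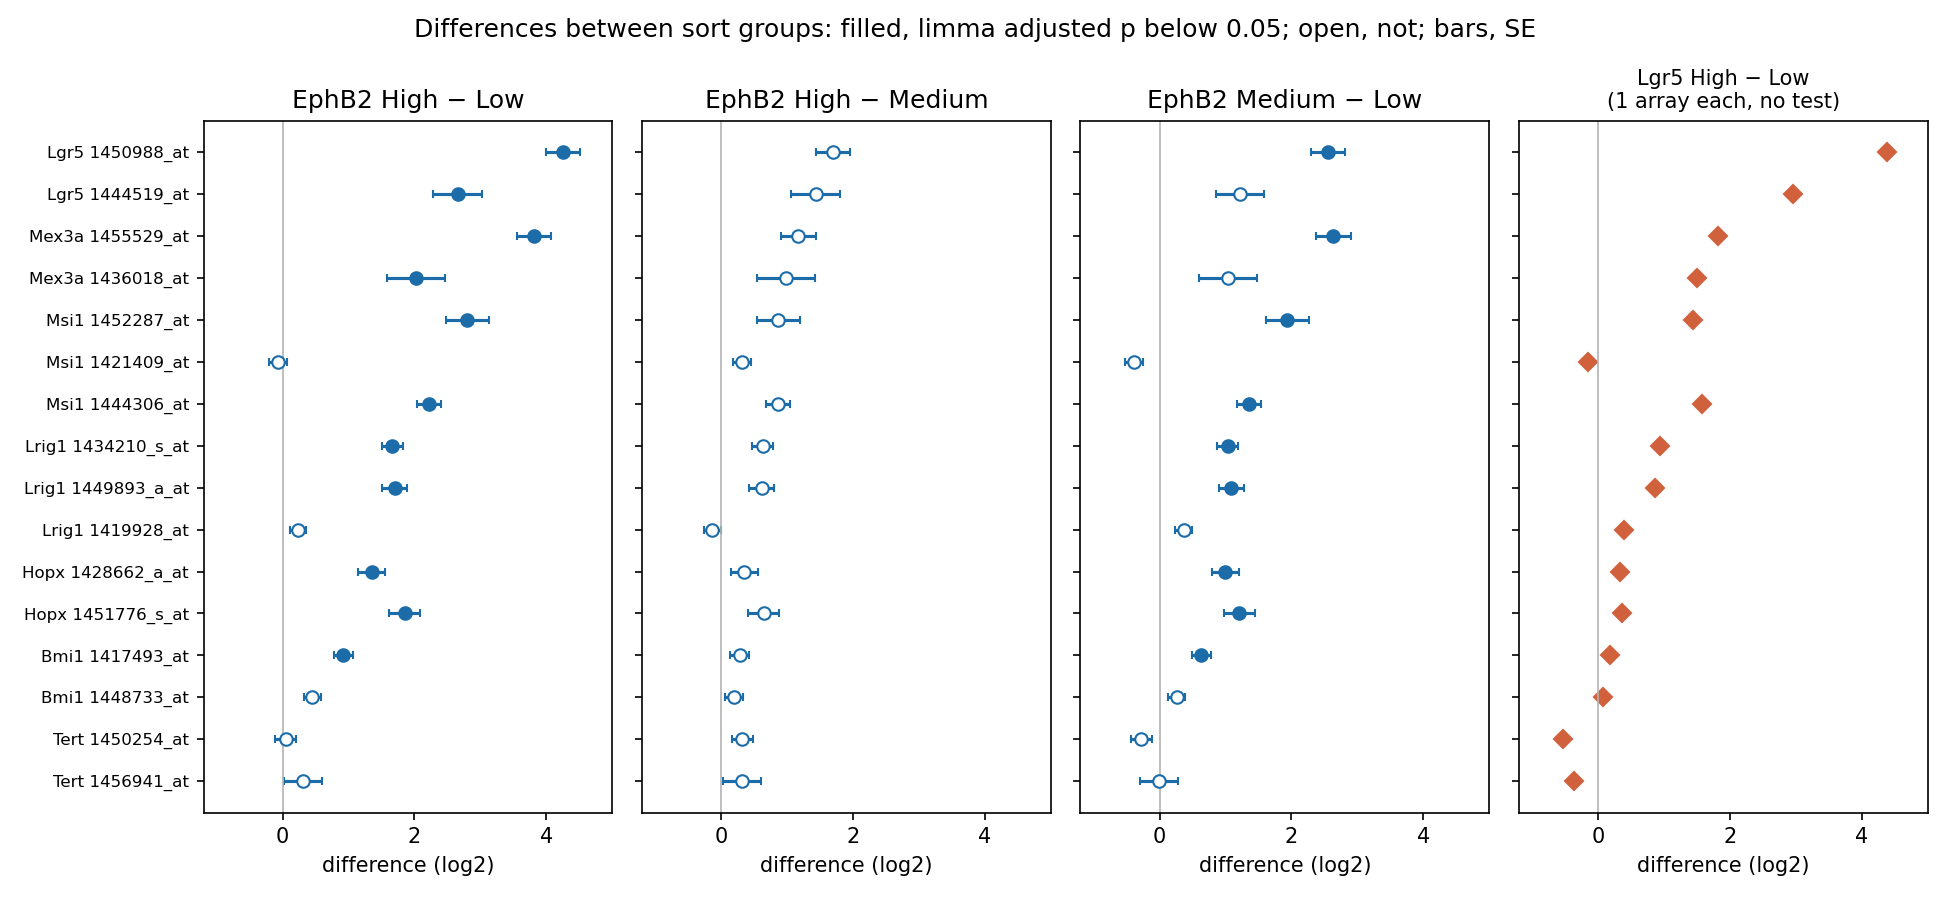
Log2 difference between EphB2 High and EphB2 Low cells for each of the 14 probe sets and the 2 of Lgr5, by limma (2 arrays per group). By limma's 95% intervals, the 9 called probe sets lie above 0, and those of Tert, the third Msi1 and the third Lrig1 probe set include 0. The interval of the second Bmi1 probe set, from 0.12 to 0.78, also lies above 0, although it was not called.

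The upper and lower steps of the EphB2 gradient were then separated. EphB2 Medium exceeded EphB2 Low in 8 of 14 probe sets, with 0 lower and a median difference of 1.02, where 15.3% of all probe sets passed, 8.54% upward and 6.78% downward. By brightest probe set 5 of 6 genes rose, where 11.4% of all genes rose and 7.78% fell. The differences were 2.64 ± 0.26 for Mex3a (limma adjusted p = 0.00654), 1.94 ± 0.33 for Msi1 (0.0184), 1.03 ± 0.16 for Lrig1 (0.0158), 0.998 ± 0.21 for Hopx (0.0299) and 0.63 ± 0.14 for Bmi1 (0.0369). These calls rest on few arrays. Only 1 probe set passed without the first EphB2 Medium array, 0 without the second, and 2 without the second EphB2 Low array. Bmi1 was lost whichever of the 6 arrays was left out (adjusted p from 0.0705 to 0.179), while the brightest Mex3a probe set was lost only without the second EphB2 Medium array (adjusted p = 0.0519).

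EphB2 High and EphB2 Medium differed in 0 of 14 probe sets, where 0.300% of all probe sets passed, 0.0178% upward and 0.282% downward. At an unadjusted p below 0.05 there were 6 of 14, and 4519 of all 45037. The largest difference was again that of Mex3a, 1.17 ± 0.26 (limma adjusted p = 0.214), followed by Msi1 at 0.87 (0.456), Lrig1 at 0.63 (0.278), Hopx at 0.35 (0.657) and Bmi1 at 0.28 (0.597). Lgr5 itself differed by 1.70 ± 0.26 over this step and did not pass either (adjusted p = 0.0924). Whether the upper step was smaller than the lower one was tested as the difference of the 2 steps. That test called 0 of 14 probe sets and 0 of 45037 in all by limma, with 2 and 4042 at an unadjusted p below 0.05. For Mex3a the upper step minus the lower one was -1.47 ± 0.45 (unadjusted p = 0.0183, adjusted p = 0.514).

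The same genes were set against the profile of Lgr5. Lgr5 read 9.48 and 9.64 in EphB2 High, 7.70 and 8.01 in EphB2 Medium, and 5.66 and 4.96 in EphB2 Low cells, a rise of 4.25 ± 0.26 (19.0-fold, limma adjusted p = 0.000595). Lgr5 exceeded the 95th percentile of genes of other tissues on 7 of 8 arrays, all but the second EphB2 Low one. Its change, and each difference from it below, was thus measured against a level partly at unspecific signal. A test of the difference itself subtracted Lgr5 on each array before the fit. Moderated as planned, that fit gave all probe sets a single spread, so each probe set's own spread (3 residual degrees of freedom) was used instead, a choice made after seeing the data. On this test the change between EphB2 High and EphB2 Low fell short of that of Lgr5 in 14 of 14 probe sets, as it did in 99.7% of all. The 2 of Tert are in that count although they had no level above unspecific signal, and no value is given for them. The gene's change minus that of Lgr5 was -0.44 ± 0.12 for Mex3a (limma without moderation, adjusted p = 0.0383), -1.45 ± 0.29 for Msi1 (0.0162), -2.59 ± 0.25 for Lrig1 (0.00292), -2.90 ± 0.13 for Hopx (0.00274) and -3.33 ± 0.26 for Bmi1 (0.00274). Other probe sets of these genes gave -2.23 for Mex3a, -2.03 and -4.32 for Msi1, -2.55 and -4.02 for Lrig1, -2.40 for Hopx and -3.80 for Bmi1. The brightest Mex3a probe set was near unspecific signal on the second EphB2 Low array, at 5.03 against a 95th percentile of 4.99. It was the only one not called in the fit as planned (limma SE 0.41, adjusted p = 0.286). In that fit 13 of 14 were lower, against 99.9% of all. The dimmer Lgr5 probe set exceeded the 95th percentile of genes of other tissues on 4 of 8 arrays, with both EphB2 Low arrays below it, and was not compared.

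The Lgr5 sort gave smaller differences by brightest probe set, with 1 array per group and no test, and with the enteroendocrine, goblet, enterocyte, Paneth and tuft signal above all lower in Lgr5 High cells. Mex3a read 9.36 in Lgr5 High and 7.54 in Lgr5 Low, a difference of 1.82 or 3.53-fold. Msi1 read 9.42 in Lgr5 High and 7.97 in Lgr5 Low (1.45), and Lrig1 read 11.75 in Lgr5 High and 10.81 in Lgr5 Low (0.94). These 3 genes were at least 1.92-fold higher in the Lgr5 High cells. Hopx read 12.77 in Lgr5 High and 12.43 in Lgr5 Low, a difference of 0.34, and Bmi1 read 11.02 in Lgr5 High and 10.83 in Lgr5 Low, a difference of 0.19. Both differences were smaller than those of these genes within either EphB2 hybridization. Lgr5 itself, on whose reporter these cells were sorted, read 10.15 in Lgr5 High and 5.75 in Lgr5 Low, a difference of 4.39 or 21.0-fold.

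Among all probe sets the difference in the Lgr5 sort had a median of -0.05, 44.9% were higher in Lgr5 High, and 2.31% were higher by at least 1. Mex3a stood at the 99.73rd percentile of all differences, Msi1 at the 99.26th, Lrig1 at the 97.28th, Hopx at the 83.56th, Bmi1 at the 73.71st and Tert at the 12.7th. Other probe sets of the same genes gave 1.51 for Mex3a, 1.58 and -0.15 for Msi1, 0.86 and 0.40 for Lrig1, 0.36 for Hopx and 0.07 for Bmi1. Thus the third Msi1 probe set, which did not pass in the EphB2 sort, was also near 0 here.

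**Figure D3:**
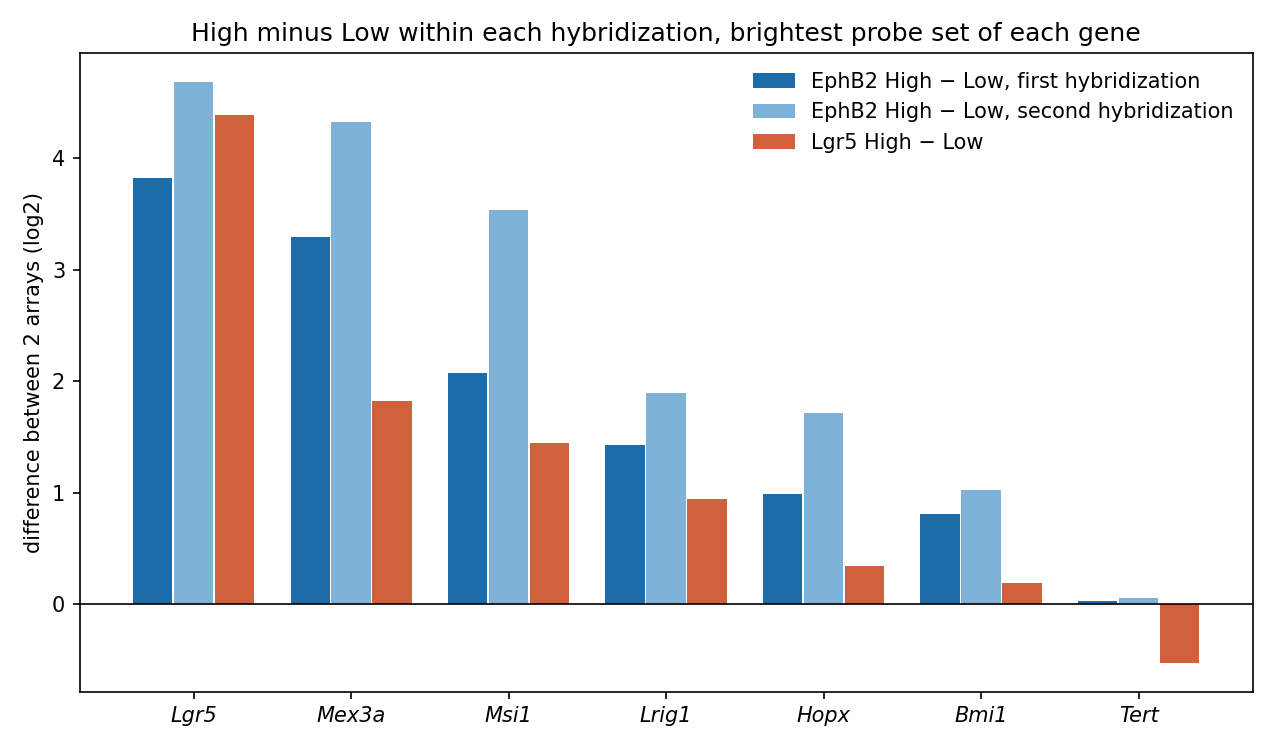
Log2 difference between the high and low sort gates within each hybridization, for the brightest probe set of each gene: EphB2 High minus EphB2 Low in the first and second hybridization, and Lgr5 High minus Lgr5 Low in the third. Lgr5 lies between 3.82 and 4.68 in all 3, whereas each of the 6 genes has its smallest value in the Lgr5 sort. That sort was gated on a reporter in the Lgr5 gene itself. Tert had no level above unspecific signal. Some other probe sets differed. The third of Lrig1 gave 0.40 in the Lgr5 sort against 0.21 and 0.25 in the EphB2 hybridizations, and the dimmer one of Mex3a 1.51 against 1.39 and 2.65.

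Ordering the group means shows where the Lgr5 Low cells fell. For Mex3a the order was Lgr5 High, EphB2 High (9.21), EphB2 Medium (8.04), Lgr5 Low (7.54) and EphB2 Low (5.40), and Msi1 had the same order. For Lrig1 EphB2 High (11.76) and Lgr5 High (11.75) were level, followed by EphB2 Medium (11.13), Lgr5 Low (10.81) and EphB2 Low (10.09). Hopx and Bmi1 had Lgr5 Low above EphB2 Medium, at 12.43 against 12.10 for Hopx and 10.83 against 10.71 for Bmi1. The gap between Lgr5 Low and EphB2 Medium for Bmi1 was smaller than the SD of its EphB2 Medium arrays (0.15). Lgr5 itself had Lgr5 Low (5.75) close to EphB2 Low (5.31) and far below EphB2 Medium (7.86). The Lgr5 Low array was thus nearer to EphB2 Medium than to EphB2 Low for 5 of these genes, and nearer to EphB2 Low for Lgr5. For Hopx it was nearest to EphB2 High. Between neighbours in these orders, EphB2 High and EphB2 Medium did not pass the test for any of the genes, and the Lgr5 arrays could not be tested.

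The change of Mex3a minus that of Lgr5 was -0.52 and -0.36 within the EphB2 hybridizations and -2.57 in the Lgr5 sort. The Lgr5 sort was gated on a reporter in the Lgr5 gene itself. A large Lgr5 difference, and so a shortfall of other genes, was built into that sort. Over all 8 arrays, likeness was taken as the root mean square difference between profiles centred on their own means. Mex3a was 0.72 from Lgr5 and the 9th nearest of 4765 genes with a level and span large enough to compare, behind genes such as Tnfrsf19 (0.60), Nav1 (0.62) and Slc38a4 (0.66). Msi1 was 0.94 away (54th), Lrig1 1.27 (485th), Hopx 1.45 (1172nd) and Bmi1 1.59 (2015th). Mex3a thus had one of the profiles nearest to Lgr5 by this measure, and Hopx and Bmi1 did not. The reverse did not hold. Among 4537 genes ranked by nearness to Mex3a, Lgr5 was 322nd, and by nearness to Msi1 it was 2299th. The measure counts the size of the changes and not only their order, so a gene of small span lies far from Lgr5. The ranks followed the spans over the 8 arrays. These were 5.19 for Lgr5, 4.34 for Mex3a, 3.54 for Msi1, 1.90 for Lrig1, 1.87 for Hopx and 1.03 for Bmi1. Tert, with no level above unspecific signal and a span under 1, was given no place.

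Each gene's own nearest profiles among 4537 genes were named by the same measure. For Mex3a they were Rassf5 (0.13), a Ras-association domain protein, Ptpro (0.17), a receptor tyrosine phosphatase, and Fzd2 (0.18), a Wnt receptor. For Msi1 they were Sfrp5 (0.12), a secreted Frizzled-related protein, Cdk6 (0.17), a G1 cyclin-dependent kinase, and Rad51b (0.18), a recombination factor. Lrig1 lay nearest to Gga2 (0.08), Dtx4 (0.09) and Dmwd (0.10), Hopx to Vegfb (0.07), Apex1 (0.07) and Mrnip (0.08), and Bmi1 to Gipc1 (0.05), Xrcc6 (0.06) and Ahctf1 (0.07). The arrays share groups and hybridizations, and a gene of small span has more close neighbours, so these distances are descriptions.

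Genes related to the 6 were counted next, with 1 probe set per gene. Of all genes, 19.6% rose and 13.2% fell in EphB2 High relative to EphB2 Low cells (median of all genes 0.01). Of 18 other Polycomb repressive complex 1 genes, 11 rose and 1 fell, with a median of 0.67. Cbx7 (1.58 ± 0.16, limma adjusted p = 0.00213) and Cbx6 (2.59 ± 0.29, 0.00271), which read methylated histone H3, rose further than Bmi1, as did Scml2 (2.55 ± 0.21, 0.00139), while Cbx8 fell by 0.64 ± 0.15 (0.0273). Of 18 telomerase and shelterin genes, 14 rose and 0 fell (median 0.84), among them Ruvbl1 (1.70 ± 0.16, 0.00191), Nhp2 (1.68 ± 0.20, 0.00341), a protein of the telomerase ribonucleoprotein, and Terf1 (1.56 ± 0.20, 0.00374), a telomere-binding protein. Most measured genes of this telomerase and shelterin list thus rose. Tert itself stayed at the level of genes of other tissues, where a change was not detectable.

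Relatives of Msi1 and Mex3a, counted together with Numb, mostly did not pass. Of 10 measured, 1 rose, 1 fell and 8 did not pass, where 19.6% of all genes rose and 13.2% fell. Mex3d rose by 1.69 ± 0.31 (limma adjusted p = 0.0115), while Numb, the classical target of Musashi, fell by 0.88 ± 0.14 (0.0072). These are RNA levels, and repression of translation by Msi1 was not measured. Msi2 differed by 1.13 ± 0.34 without passing (0.0586). Among 8 relatives and receptor targets of Lrig1, Egfr alone rose (1.20 ± 0.21, adjusted p = 0.00945), Erbb2 differed by -0.47 ± 0.15 (0.0658) and Lrig2 by -0.37 ± 0.13 (0.0915). With the hybridization as a block 3 of these 8 passed.

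Other genes proposed for reserve, label-retaining or injury-linked cells were mixed, with 6 of 12 higher, 1 lower and a median of 0.82. Of all genes, 19.6% rose and 13.2% fell. Sox9, a transcription factor of crypt progenitors, rose by 1.56 ± 0.14 (limma adjusted p = 0.00152), Krt15 by 0.99 ± 0.13 (0.00406) and Dclk1, also a tuft cell marker, by 3.36 ± 0.53 (0.00706). Cdkn1c fell by 0.72 ± 0.19 (0.0368). Dclk1 differed by -1.74 between Lgr5 High and Lgr5 Low cells, opposite in sign to 5 of the 6 genes there, with the tuft marker sums given above moving the same way. Of 17 crypt base stem cell genes, 17 rose (median 2.48), and Ascl2 had the smallest p among them (3.98 ± 0.17, limma adjusted p = 0.000364), and 17 of 17 were higher in Lgr5 High cells (median 0.90), against 44.2% of all genes. That list draws partly on published arrays of sorted crypt cells, so its direction here is no independent evidence.

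Genes that accompany division and its arrest were counted for comparison with the slow division ascribed to reserve cells. Of 14 proliferation genes, 13 rose in EphB2 High relative to EphB2 Low cells (median 1.65), including Mki67 (1.59 ± 0.22, limma adjusted p = 0.00496), Mcm2 (1.97 ± 0.24, 0.00343) and Cdk1 (1.95 ± 0.29, 0.00599). Of 13 arrest genes, 2 rose, 4 fell and 7 did not pass (median -0.13). Of all genes, 19.6% rose and 13.2% fell. The cyclin-dependent kinase inhibitors Cdkn1a (fell by 1.63 ± 0.17, 0.00245) and Cdkn2b (fell by 3.07 ± 0.33, 0.00262) were lower, as was Rb1 (fell by 1.06 ± 0.14, 0.0046). Cdkn2a, a gene that Bmi1 represses in other tissues and named here after its value was seen, differed by -0.12 ± 0.15 (adjusted p = 0.64). Its levels, 3.79 to 4.501 over the 8 arrays, lay below the 95th percentile of genes of other tissues, so a change in it was not detectable either. In the Lgr5 sort 12 of 14 proliferation genes were higher in Lgr5 High, against 44.2% of all genes. Their median difference was 0.15 (all genes -0.05), close to the difference of Bmi1 and below those of Mex3a and Msi1.

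**Figure D4:**
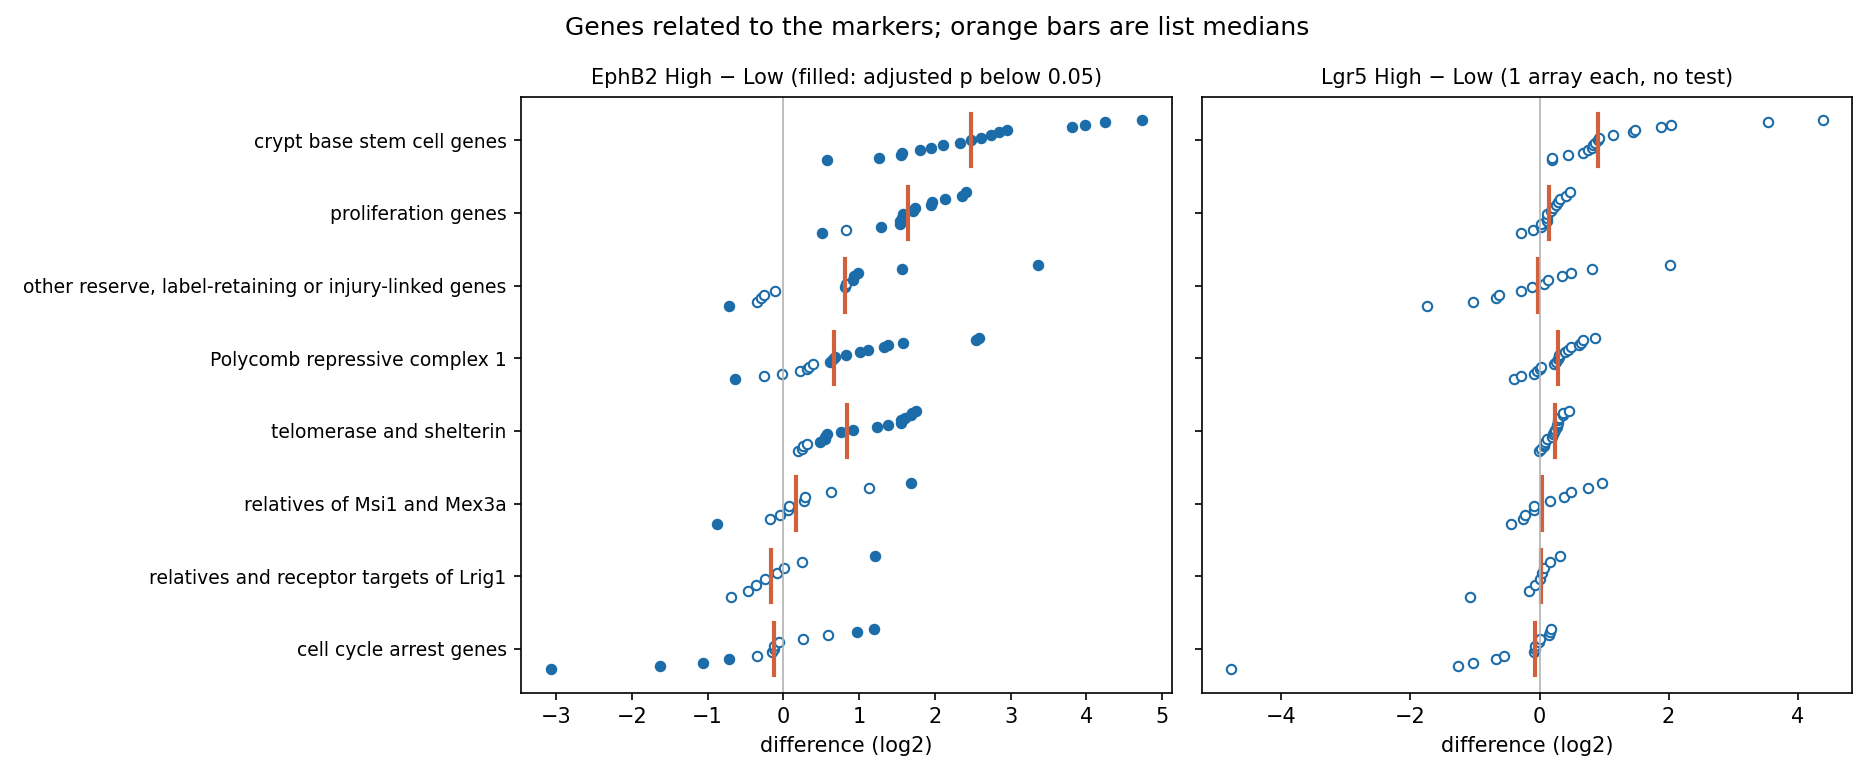
Log2 difference between EphB2 High and EphB2 Low cells (horizontal axis) for each measured gene of the related lists, with the list's median marked. All 17 crypt base stem cell genes and 13 of 14 proliferation genes rose, whereas the relatives of Msi1, Mex3a and Lrig1 centre near 0.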

How the data were processed

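The 6 genes, the related lists and the comparisons were chosen with earlier results of these data known. The deposited values are log2 RMA values per the submitters' processing notes. RMA's version, and whether the 8 arrays were normalized together, are not given in the sources used here. Since RMA equalizes the distributions of arrays, a global change in RNA content cannot be seen. No column of per-sample values was left unused.

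The table held 45101 probe sets, of which 64 controls were left out. By the platform annotation 34945 named 1 gene, 932 several and 9160 none. The IDs of 34741 single-gene probe sets were found in the RefSeq gene table, which gave current symbols. No probe set named one of the 6 genes among several. A gene's brightest probe set over the 6 EphB2 arrays stands for it where 1 value is needed.

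limma 3.58.1 in R 4.3.3 (lmFit, contrasts.fit, eBayes) was fitted to all 45037 probe sets on the 6 EphB2 arrays, with no term beside group, leaving 3 residual degrees of freedom (5.85 with the prior). It was tested on simulated data. Replicate numbers pair the arrays, since the labels give same-numbered EphB2 arrays a shared hybridization. Their deviations from the group means correlated at 0.47 (High and Medium), 0.18 (High and Low) and 0.26 (Medium and Low). Alternatives were that number as a block, quantile normalization, a filter on dim probe sets, 1 probe set per gene, a trended prior, Ascl2 in place of Lgr5, and each array left out. Named were all probe sets of the 6 genes and Lgr5, the 3 nearest profiles per gene, and up to 3 genes of smallest p per list. Cbx8, Cdkn1c and Cdkn2a were named after their values were seen. Ephb2 was not analysed here. The number of arrays limits the precision.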

Additional observations from a re-analysis of the deposited data

Results flagged for a closer look

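Tert differed in direction between the sorts on both of its probe sets. Its brightest probe set was lower in Lgr5 High than in Lgr5 Low cells by a log2 difference of -0.53 (3.82 in Lgr5 High and 4.35 in Lgr5 Low), whereas EphB2 High minus EphB2 Low was 0.03 and 0.06 within the 2 EphB2 hybridizations. The other probe set differed by -0.36 in the Lgr5 sort (4.497 in Lgr5 High and 4.86 in Lgr5 Low), and was higher in EphB2 High in both EphB2 hybridizations. The difference between the sorts was not tested, since the Lgr5 groups had 1 array each. All of these levels lay below the 95th percentile of the genes of other tissues on the same array.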

How the results depend on the processing

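The counts below are from limma at an adjusted p below 0.05. Between EphB2 High and EphB2 Low, 9 of the 14 probe sets passed, 10 with the hybridization as a block or a trended prior, and 7 to 9 with 1 array left out. Over the whole table that comparison called 12335 probe sets, 6792 with 1 probe set per gene (fewer tested), and 5898 (without the second EphB2 High array) to 10728 with 1 array left out. EphB2 Medium against EphB2 Low called 6900, 4489 with 1 probe set per gene, and 531 (without the second Medium array) to 6240 with 1 array left out. The 14 probe sets there gave 8 calls, and 0 to 7 with 1 array left out. EphB2 High against EphB2 Medium called 135, 81 with the replicate block, 299 with the dim filter, 248 with 1 probe set per gene, 470 with a trended prior and 0 without any 1 array. The difference of the steps called 0, or 1 with 1 probe set per gene. The change unlike that of Lgr5 was called for 44992, for 22486 with the dim filter and 18167 with 1 probe set per gene, and for 13 of the 14 or 8 with the dim filter, both by fewer tests. Among the probe sets of the 6 genes and Lgr5, beside the second of Bmi1, the block changed 1 other call, that of the dimmer Lgr5 probe set over the lower step (adjusted p = 0.0482). Lgr5 itself passed between EphB2 High and EphB2 Medium with a trended prior (adjusted p = 0.0385) or 1 probe set per gene (0.0463), and the third Lrig1 probe set passed over the lower step with the dim filter (0.0461). Quantile normalization turned the second Tert probe set over the lower step to 0.02. With 1 array left out, some signs turned. Between High and Low the third Msi1 probe set ranged from -0.16 to 0.014, and the Tert probe sets from -0.0007 to 0.090 and from -0.092 to 0.71. Over the lower step the second Tert probe set ranged from -0.41 to 0.39. The difference of the steps ranged from -0.21 to 0.075 for the second Bmi1 probe set, from -0.96 to 1.39 for the dimmer Lgr5, from -0.75 to 0.65 for the dimmer Mex3a and from -0.073 to 0.73 for the second Tert probe set. The cause was not tested.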
